A study of Mus musculus with 8 samples.

Results

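Smooth muscle contractile genes were followed in RNA of whole mouse esophagus as a set of 10 genes: Myh11, Myl9, Acta2, Actg2, Cnn1, Tagln, Smtn, Synpo2, Lmod1 and Myocd. The rule that defines the set is a list of names, well-known genes of the smooth muscle contractile programme, and uses no measured value. All 10 were found among the 49315 Ensembl identifiers of the deposited count table and all 10 had enough counts to be tested. The EoE33 group held 4 male mice aged 8 weeks that carry a transgene for IL-33 in the esophagus. The wild type group held 4 male littermates of the same age, and both groups are of the C57BL/6J strain. The promoter that drives the transgene is not given in the sources used here. PolyA-selected RNA was sequenced to between 17.73 and 24.07 (in units of 1e6) counts per library, 1 library per mouse. As a check of the labels, Il33 lay between 354.7 and 393.4 CPM in EoE33 and between 99.8 and 165.1 CPM in wild type, where CPM is counts per 1e6 counts after TMM scaling.

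Smooth muscle contracts when calcium activates myosin light chain kinase, which phosphorylates the regulatory light chain so that smooth muscle myosin pulls on actin filaments. Calponin, transgelin, smoothelin, synaptopodin-2 and leiomodin bind, bundle or nucleate those filaments. The programme is switched on by myocardin, a coactivator that binds serum response factor (SRF) on short DNA elements named CArG boxes. In the mouse esophagus the outer muscle coat is largely striated, and smooth muscle lies in the muscularis mucosae and in the walls of blood vessels.

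The 250 bases before the RefSeq gene start (GRCm38.p6) were searched for the CArG box because members that share a regulator may share its element. The search took both strands, and the consensus reads the same on each. Windows were at hand for 6 of the 10 members: Acta2, Cnn1, Lmod1, Smtn, Synpo2 and Myl9. The start used is not always the outermost start in the GENCODE annotation. The Smtn window (chr11:3539293-3539542) lies inside that gene, which runs from 3517523 to 3540612. Those of Acta2, Cnn1, Lmod1 and Myl9 reach into the gene in part. A window without a box thus does not show that none lies before the gene. A full CArG box was present in 1 of these 6 windows, that of Myl9, and in 1.47% of all 32851 promoter windows. A box with at most 1 letter of its A/T core replaced by C or G was present in 2 of the 6, those of Acta2 and Myl9, and in 8.59% of all windows. Among relatives of the members, 5 of 22 windows (22.7%) held a full box. They belong to Actg1 and Cnn2, which were higher in EoE33, to the striated actins Acta1 and Actc1, which were lower, and to the light chain Myl6, which did not pass. The sequences below are those of the 2 members and, as non-muscle counterparts with a full box, of cytoplasmic actin Actg1 and calponin Cnn2. Each runs 5′ to 3′ on the gene's strand, and capitals mark full boxes and boxes with 1 core letter replaced.
Acta2 (chr19:34255374-34255623, minus strand): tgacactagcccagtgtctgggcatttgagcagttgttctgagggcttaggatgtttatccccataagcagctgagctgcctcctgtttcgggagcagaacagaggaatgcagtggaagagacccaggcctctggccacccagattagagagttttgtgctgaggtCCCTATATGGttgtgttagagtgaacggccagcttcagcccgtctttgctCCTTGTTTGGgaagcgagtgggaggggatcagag
Myl9 (chr2:156775214-156775463, plus strand): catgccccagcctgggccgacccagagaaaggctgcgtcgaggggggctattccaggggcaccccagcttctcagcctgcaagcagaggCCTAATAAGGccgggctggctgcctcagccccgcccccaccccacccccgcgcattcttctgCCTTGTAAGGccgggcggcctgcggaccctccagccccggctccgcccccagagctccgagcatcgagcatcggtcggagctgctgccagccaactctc
Actg1 (chr11:120348496-120348745, minus strand): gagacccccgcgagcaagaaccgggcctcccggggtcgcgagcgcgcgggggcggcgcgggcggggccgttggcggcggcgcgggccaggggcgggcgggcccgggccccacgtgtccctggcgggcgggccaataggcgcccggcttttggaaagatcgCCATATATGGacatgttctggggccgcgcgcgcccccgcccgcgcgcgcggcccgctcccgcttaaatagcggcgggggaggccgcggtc
Cnn2 (chr10:79988350-79988599, plus strand): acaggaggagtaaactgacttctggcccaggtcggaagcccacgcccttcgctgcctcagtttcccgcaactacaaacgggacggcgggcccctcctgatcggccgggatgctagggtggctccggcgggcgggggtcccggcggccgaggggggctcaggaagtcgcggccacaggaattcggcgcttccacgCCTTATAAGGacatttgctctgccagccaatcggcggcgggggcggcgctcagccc
A match of letters is a description and not a shown binding site.

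Relative to wild type, 7 of the 10 members were lower in EoE33, none was higher and 3 did not pass (edgeR quasi-likelihood test, Benjamini-Hochberg adjusted p under 0.05). Of all 16760 genes tested, 63.4% were called in either direction, 32.1% lower and 31.3% higher. With a log2 fold change of at least 1 in size also required, 6 members were lower, beside 14.9% of all genes lower, 12.3% higher and 27.2% either way. With no filter on low counts, 3 members were lower, beside 16.6% of the 31222 genes then tested. The median log2 fold change of the members was −1.10, beside −0.01 over all genes tested. Lmod1, Synpo2, Myh11, Myl9, Myocd, Acta2 and Tagln fell, by between 1.86-fold for Tagln and 3.80-fold for Lmod1. Cnn1, Actg2 and Smtn did not pass. CPM is a share of each library. In bulk tissue, fewer smooth muscle cells, less RNA per cell and more RNA from other cells cannot be told apart.

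The wild type libraries did not lie together. The summed level of the 10 members was 1583, 1597, 1529 and 1394 CPM in EoE33 replicates 1 to 4, against 3970, 2669, 1393 and 4868 CPM in wild type replicates 1 to 4. The 4 EoE33 libraries were close to one another, and wild type replicate 3 lay at their level while wild type replicates 1 and 4 lay far above it. Within EoE33 the highest library was 1.08 to 1.42 times the lowest, depending on the member. Within wild type it was 1.93 to 4.65 times the lowest. Of the 10199 genes with a mean of at least 10 CPM, 4.38% had a wild type range of 1.93 or more. Only Lmod1 and Synpo2 had EoE33 and wild type libraries that did not overlap, 2 of 10 members, where 29.9% of all genes tested lay without overlap in the lower direction, 29.6% in the higher direction and 59.5% in either.

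**Figure D1:**
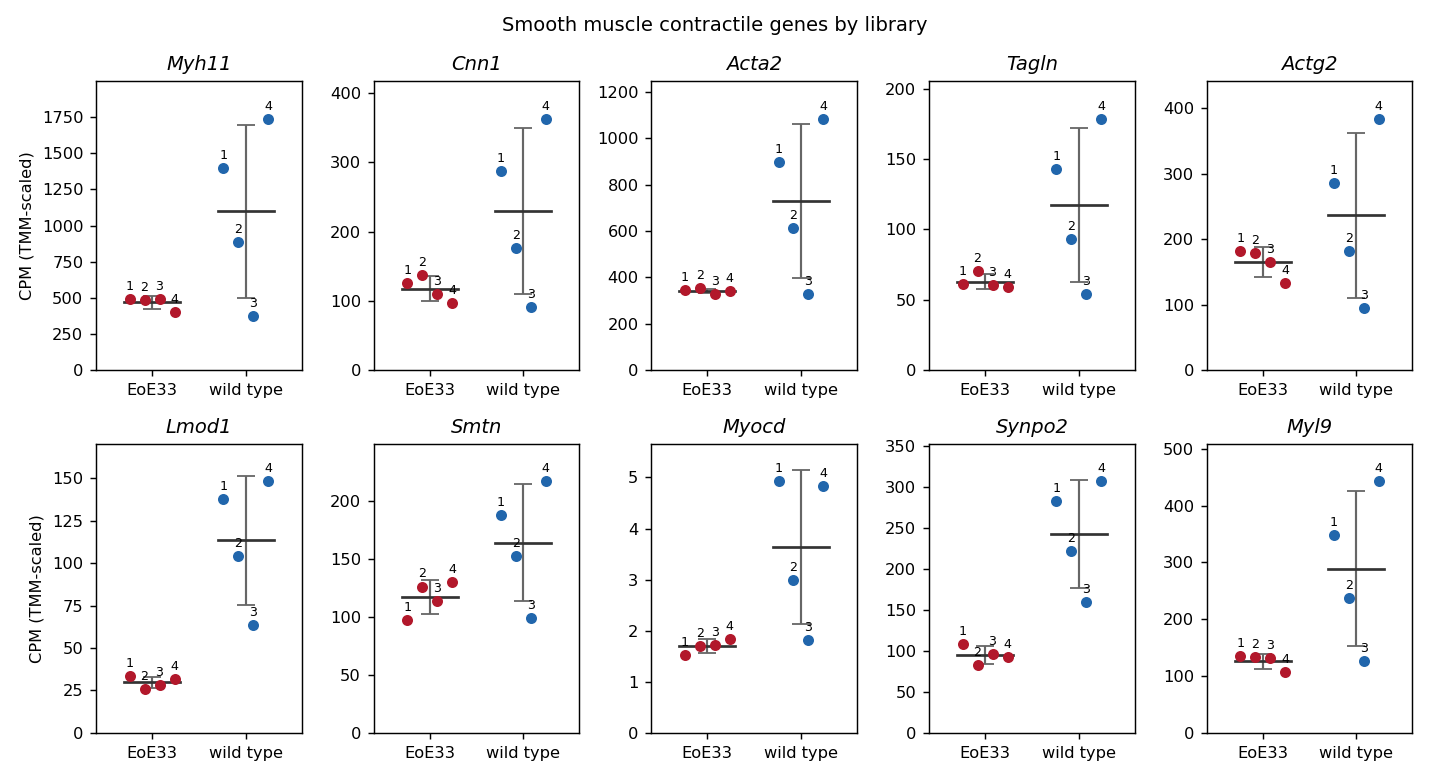
Level of each of the 10 genes in CPM (TMM-scaled, linear axis from 0) in the 4 EoE33 libraries and the 4 wild type libraries. Points are single libraries with their replicate number, horizontal lines are means and bars are SD. EoE33 libraries lie close together, and wild type replicate 3 is inside the EoE33 range for 3 genes, below it for 5 and above it for Lmod1 and Synpo2.

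Wild type replicate 3 also had the highest sum of airway epithelium and cartilage markers, below called airway markers. The 14 airway markers summed to 1952 CPM there, against 377.2 to 546.4 CPM in the other wild type libraries and 60.05 to 136.1 CPM in EoE33. Wild type replicate 3 was the lowest wild type library for all 10 members, so leaving it out had to enlarge their falls. The fit without it is thus no added support. In that fit all 10 members were lower in EoE33, where 30.9% of the 17061 genes then tested were lower, 30.0% higher and 60.9% either. EoE33 and the remaining wild type libraries then did not overlap for 9 members, all but Actg2, where 32.9% of the 16760 genes lay without overlap in the lower direction. Leaving out any of 6 other libraries, wild type replicate 1 or 4 or any 1 of the EoE33 libraries, gave 5 members lower. In these fits 4880 to 5333 of the 17053 to 17128 genes tested were lower, and 56.9% to 61.3% were called either way. Myh11 and Tagln passed in none of these 6 fits. The adjusted p of Myh11 then lay between 0.0614 and 0.0821 and that of Tagln between 0.0667 and 0.103 (edgeR). Without wild type replicate 4 every member had a smaller fall in the fit, with a median log2 fold change of −0.87, −0.18 for Actg2 and −0.33 for Smtn, against a median of −1.33 without wild type replicate 3. Without wild type replicate 2, 6 members were lower, beside 4939 of 17099 genes, and Tagln had an adjusted p of 0.0528 (edgeR).

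**Figure D2:**
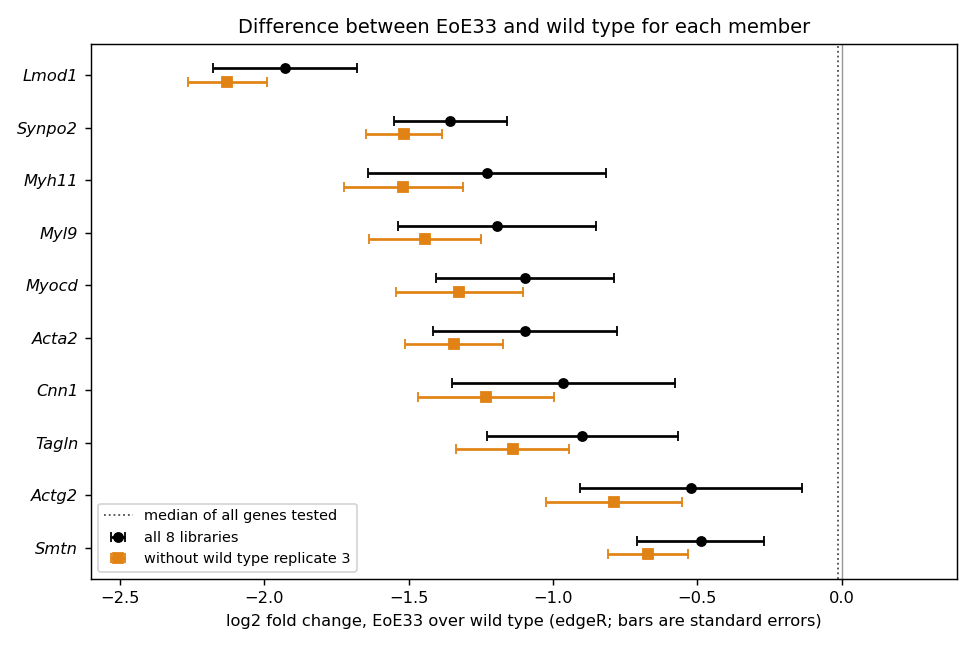
Log2 fold change of EoE33 over wild type for each gene with all 8 libraries (black circles) and without wild type replicate 3 (orange squares). Bars are standard errors from edgeR, and the dotted line is the median of all genes tested, −0.01. All 10 values lie below it in both fits. All move further down without wild type replicate 3, the lowest wild type library for each gene.

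The motor itself was lower. Myh11, the smooth muscle myosin heavy chain (chromosome 16 from 14194535 to 14291372, GRCm38), had 492.5, 487.2, 495.5 and 402.0 CPM in the 4 EoE33 libraries, against 1396.5, 886.3, 373.7 and 1738.5 CPM in the 4 wild type libraries. All EoE33 libraries lay below 3 of the wild type libraries and above wild type replicate 3. Its log2 fold change came to −1.23 (SE 0.41, edgeR, adjusted p = 0.0305), a 2.34-fold fall. Permuting the 8 libraries (exact permutation test on log2 CPM, two-sided) gave p = 0.143. Myl9, the regulatory light chain whose phosphorylation starts contraction (chromosome 2 from 156775420 to 156781658), had 134.8, 132.7, 131.0 and 106.7 CPM in EoE33, against 347.8, 237.8, 127.1 and 442.4 CPM in wild type. Wild type replicate 3 lay inside the EoE33 range and the other wild type libraries above it. The log2 fold change of Myl9 came to −1.19 (SE 0.34, edgeR, adjusted p = 0.0159).

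Of the 2 smooth muscle actins, Acta2 passed and Actg2 did not. Acta2, α-smooth muscle actin of vessels and of other smooth muscle (chromosome 19 from 34241090 to 34255590), had 343.9, 353.6, 328.0 and 339.8 CPM in EoE33, against 895.4, 611.3, 328.0 and 1083.8 CPM in wild type. The lowest EoE33 library and wild type replicate 3 were level, and the other wild type libraries lay above all of EoE33. Its log2 fold change came to −1.10 (SE 0.32, edgeR, adjusted p = 0.0159). It is also made by pericytes and myofibroblasts. Actg2, the γ-actin typical of visceral smooth muscle (chromosome 6 from 83512905 to 83536265), had 182.9, 179.3, 165.1 and 132.6 CPM in EoE33, against 285.4, 182.4, 94.5 and 384.3 CPM in wild type. The groups overlapped, with wild type replicate 2 within the EoE33 range and replicate 3 below it. The log2 fold change of Actg2 was −0.52 with a 95% interval from −1.41 to 0.37, and it did not pass (adjusted p = 0.267, edgeR).

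Per length of exon, Acta2 had the highest level of the set and Myocd the lowest in both groups. In EoE33, Acta2 was at 155.4 ± 4.82 CPM per kb, Myl9 at 108.7 ± 11.3 and Actg2 at 106.0 ± 14.7 (SD, n = 4). Below them in EoE33 stood Myh11, Cnn1, Tagln, Smtn, Lmod1, Synpo2 and Myocd, in that order, with 61.8 ± 5.92 for Myh11 and 7.55 ± 0.852 for Lmod1 against 7.25 ± 0.822 for Synpo2, a pair within their spread. The order of means was the same in wild type, where Acta2 was at 332.3 ± 151 CPM per kb, Myl9 at 248.5 ± 117 and Actg2 at 152.0 ± 80.7 (SD, n = 4). Myl9 and Actg2 did not differ beyond their spread in EoE33, and in wild type the spreads of all 3 overlapped. No 150-base window of the longest annotated transcript of any member occurs in a transcript of another gene, the 2 actins included.

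Among the 5 members that bind the filaments, Lmod1 and Synpo2 had the largest falls. Lmod1, leiomodin 1, which nucleates actin filaments (chromosome 1 from 135324807 to 135368065), had 33.5, 25.9, 28.4 and 31.6 CPM in EoE33, against 137.7, 104.2, 63.6 and 148.2 CPM in wild type. Every EoE33 library lay below every wild type library. The log2 fold change came to −1.93 (SE 0.25, edgeR, adjusted p = 0.000221), and the exact permutation test gave p = 0.0286, the smallest that 70 orderings of 4 against 4 can give. Synpo2, synaptopodin-2, an actin-bundling protein of the Z-disc and of dense bodies (chromosome 3 from 123076519 to 123236149), had 108.5, 82.3, 95.7 and 92.8 CPM in EoE33, against 283.6, 221.5, 159.2 and 307.0 CPM in wild type. Again no libraries overlapped. As Synpo2 is also a Z-disc gene and all 20 skeletal muscle markers fell, bulk libraries do not assign its fall to smooth muscle. The log2 fold change of Synpo2 came to −1.36 (SE 0.20, edgeR, adjusted p = 0.000340, exact permutation p = 0.0286). For the other 8 members the exact permutation p lay between 0.0571 and 0.457.

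Tagln, transgelin or SM22α (chromosome 9 from 45929619 to 45936058), had 61.3, 70.8, 60.6 and 59.3 CPM in EoE33, against 143.0, 93.5, 54.2 and 178.7 CPM in wild type. The EoE33 libraries lay above wild type replicate 3 and below the other 3. It passed, at −0.90 on the log2 scale (SE 0.33, edgeR, adjusted p = 0.0426). Of its exon bases, 62.4% overlap the antisense gene Gm48529, which had 79 to 109 counts per EoE33 library and 100 to 180 per wild type library. How reads in that stretch were assigned is not given in the sources used here, so the level of Tagln is uncertain. Cnn1, the calponin of smooth muscle that inhibits the myosin ATPase (chromosome 9 from 22099216 to 22109630), had 126.5, 137.5, 109.8 and 96.9 CPM in EoE33, against 287.6, 176.4, 91.8 and 363.2 CPM in wild type. Its 4 EoE33 libraries lay above wild type replicate 3 and below the other 3. Its log2 fold change came to −0.97 (SE 0.39) and did not pass (adjusted p = 0.0587, edgeR). Smtn, smoothelin, found in contractile smooth muscle (chromosome 11 from 3517523 to 3540612), had 97.7, 126.2, 113.4 and 130.2 CPM in EoE33, against 187.6, 152.6, 99.1 and 216.7 CPM in wild type. Wild type replicate 3 lay inside the EoE33 range. An opposite-strand gene, Gm11946, overlaps 16.3% of its exon bases, so its level is uncertain as well. Its log2 fold change of −0.49 had a 95% interval from −0.99 to 0.01 (adjusted p = 0.0814, edgeR).

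Myocd, the myocardin coactivator (chromosome 11 from 65176561 to 65269989), was the least abundant member. It had 138 counts over the EoE33 libraries and 340 over the wild type libraries. Its level was 1.53, 1.70, 1.73 and 1.85 CPM in EoE33, against 4.92, 2.99, 1.82 and 4.84 CPM in wild type. All EoE33 libraries were below 3 wild type libraries, and wild type replicate 3 was within their range. The log2 fold change came to −1.10 (SE 0.31, edgeR, adjusted p = 0.0118). Its partner Srf had 91.7 ± 9.93 CPM in EoE33 against 94.5 ± 5.58 CPM in wild type (± SD, n = 4 each). Srf did not pass, at −0.04 on the log2 scale (adjusted p = 0.681, edgeR). Mrtfa, a myocardin-related coactivator, was slightly higher with a log2 fold change of 0.20 (adjusted p = 0.0118, edgeR), and Mrtfb did not pass (log2 fold change −0.09). The small values of Srf and Mrtfb turned positive, 0.06 and 0.01, under library size without the counts of Chil4, a scaling that moved the median of all genes by 0.10.

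The members varied together across libraries. The deviation of each member from its group mean, on the log2 scale, correlated with the mean deviation of the other 9 at r = 0.90 for Smtn to 0.996 for Acta2 over the 8 libraries, as a description. The points share their library and its scaling, and nearly all of the variation came from the wild type libraries. Their mean deviations were 0.41, −0.13, −0.94 and 0.66 for wild type replicates 1 to 4, against −0.08 to 0.05 for the EoE33 libraries. For 9 members the wild type libraries stood in the order 4, 1, 2, 3 from high to low, and for Myocd replicates 1 and 4 changed places. That order was found in 9.62% of all genes tested. The genes most like the members in these deviations were 5730409E04Rik, Kctd18, Nnat, Mcam, Gm37494 and Msrb1, with r between 0.987 and 0.993 over the 8 libraries, out of 10190 genes with a mean of at least 10 CPM. As deviations are taken from group means, this likeness does not depend on the difference between groups. Kctd18 and Msrb1 did not pass, with log2 fold changes of −0.07 and −0.09. 5730409E04Rik, Nnat, Mcam and Gm37494 were lower, with −0.94, −3.96, −0.85 and −0.325. Mcam, an adhesion molecule of vessel walls and smooth muscle, had 42.1, 44.1, 37.3 and 41.5 CPM in EoE33, against 90.1, 60.1, 35.8 and 111.8 CPM in wild type.

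Within a library, the members were not all lower to the same degree. Set against the mean of the other 9 members in the same library, a measure chosen after the values were seen, Lmod1 was lower in every EoE33 library than in any wild type library, with a difference of −1.01 on the log2 scale. Actg2 and Tagln were higher in every EoE33 library on this relative measure, with differences of 0.65 and 0.20. Smtn, with a difference of 0.55, and Synpo2, with −0.42, overlapped between groups. For Acta2 the difference was −0.03 and for Myh11 it was −0.09. These differences are given without a test.

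Non-muscle and striated relatives of the members moved in different directions, and 14 ratios of a member to a relative were taken within each library, where scaling between libraries cancels. Tagln2, the transgelin of non-muscle cells, rose 3.56-fold (adjusted p = 4.58e-06, edgeR). The cytoplasmic actins Actg1 and Actb rose 2.43-fold and 1.66-fold, and the non-muscle myosin Myh9 rose 2.06-fold. Cnn2, a non-muscle calponin, rose 1.75-fold, and the tropomodulin Tmod3 and the light chain Myl12b rose 1.26-fold and 1.16-fold. Myh10, another non-muscle myosin, fell by 1.41 on the log2 scale. Cnn3, Myl12a, Myl6 and Myh14 did not pass, with log2 fold changes of 0.09, 0.12, 0.29 and 0.05. Relatives of striated muscle fell: Tmod1, Lmod3, Lmod2, Synpo2l, Smtnl1 and the actins Acta1 and Actc1 had log2 fold changes of −2.40, −2.30, −1.85, −1.53, −2.05, −1.58 and −2.56. Smtnl2, a smoothelin-like gene, and Synpo, synaptopodin, had log2 fold changes of −2.27 and −0.67. Tmod2 and Tagln3, known from neurons, had log2 fold changes of −1.55 and −1.10. In all, 7 of 23 relatives rose and 12 fell, beside 31.3% and 32.1% of all genes tested. The rises of Tagln2, Actg1, Actb, Myh9, Cnn2, Tmod3 and Myl12b passed under all 4 other scalings. With the replicate number as a block Myl12b did not pass (adjusted p = 0.0551, edgeR). Myl12a passed as higher under library size without Chil4, Myl6 under that scaling and DESeq2 size factors, and Tagln3 no longer passed under library size without Chil4.

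None of the 14 ratios passed after adjustment over the pairs (two-sided exact permutation test over the 8 libraries, Benjamini-Hochberg), and 6 reached the unadjusted p of 0.0286, the smallest the design allows, with an adjusted p of 0.0667. With 4 libraries in each group, no ratio can pass this adjustment unless most of the pairs reach that smallest p, so the lack of calls is close to fixed by the design. In those 6 pairs EoE33 and wild type libraries did not overlap. Tagln to Tagln2 had a mean log2 ratio of −3.13 ± 0.21 in EoE33, against −0.55 ± 0.89 in wild type (± SD, n = 4 each). Lmod1 to Tmod3 had −2.57 ± 0.19 in EoE33 and −0.39 ± 0.68 in wild type. Myh11 to Myh9 had −0.57 ± 0.21 in EoE33 and 1.49 ± 0.91 in wild type. Acta2 to Actb had −2.30 ± 0.15 in EoE33 and −0.61 ± 0.71 in wild type. The other 2 ratios were higher in EoE33. Actg2 to Acta2 had log2 ratios of −0.91, −0.98, −0.99 and −1.35 in EoE33, against −1.65, −1.74, −1.79 and −1.50 in wild type, a difference of 0.61. Smtn to Smtnl2 had 2.23 ± 0.40 in EoE33 and 0.36 ± 0.51 in wild type. Myh11 to Myh10 overlapped between groups, with a difference of 0.38 (exact permutation p = 0.629), and the difference was −0.05 without wild type replicate 3.

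**Figure D3:**
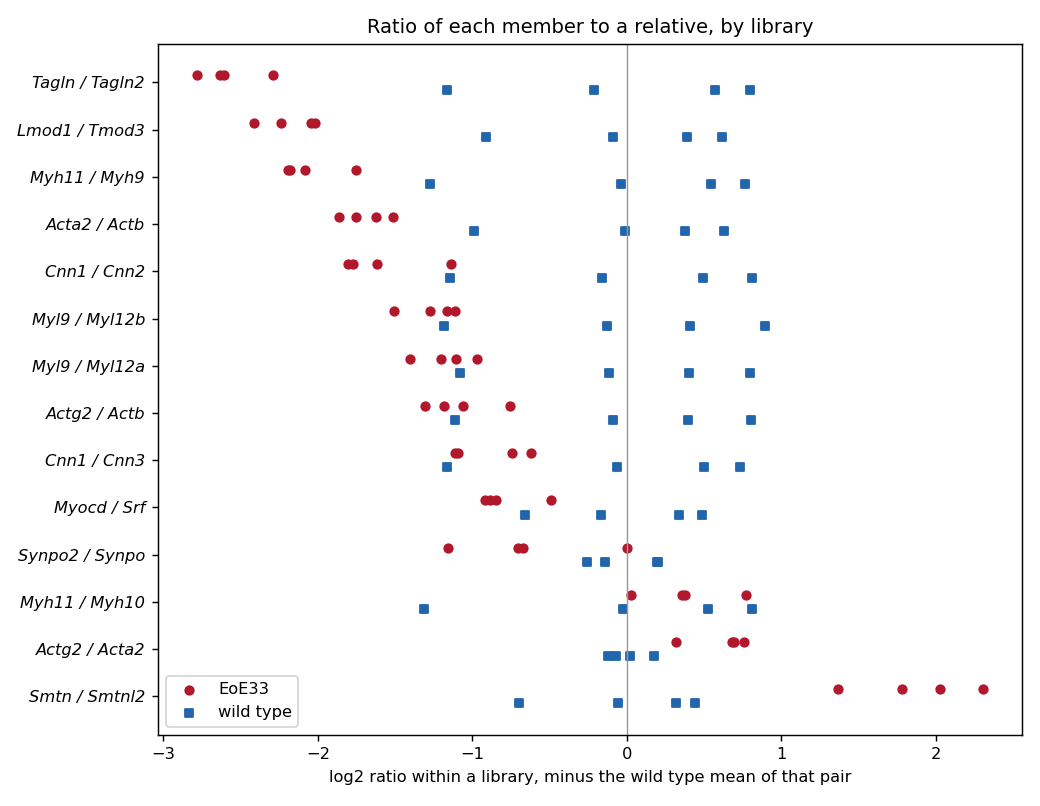
Log2 ratio of a member to a relative within each library, minus the wild type mean of that pair, for EoE33 (red circles) and wild type (blue squares), 4 libraries each. Groups do not overlap for Tagln/Tagln2, Lmod1/Tmod3, Myh11/Myh9, Acta2/Actb, Actg2/Acta2 and Smtn/Smtnl2, and none of the 14 pairs passed after adjustment.

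Other parts of the contractile apparatus were read beside the background of 32.1% of all genes lower and 31.3% higher. Of 40 other genes of filaments, dense bodies, attachment plaques and sarcolemma, 28 fell, 4 rose and 8 did not pass, with a median log2 fold change of −1.15. Nexn, Tpm1, Hspb8 and Hspb6, an actin-binding protein, a tropomyosin and 2 small heat shock proteins, fell by 1.70, 1.52, 1.90 and 1.88 on the log2 scale. These 4 are also made by striated muscle, and all 20 skeletal muscle markers fell. RNA of whole esophagus mixes both muscle types, and the share of smooth muscle in the 28 falls was not tested. Of the 40 genes, 22 had the wild type order of the members, 4, 1, 2, 3. Among these 22 were genes that fell, genes that rose and genes that did not pass. Tpm4, Palld, Actn1 and Filip1l rose, with log2 fold changes of 1.38, 0.39, 1.25 and 0.21. Tpm4 and Actn1 encode a cytoskeletal tropomyosin and an α-actinin of non-muscle cells and smooth muscle. Cald1, which encodes the filament protein caldesmon, was named after its values were seen and did not pass, with 165.7, 204.1, 209.7 and 174.9 CPM in EoE33, against 268.9, 193.1, 102.7 and 369.9 CPM in wild type. Its log2 fold change was −0.31. Wild type replicate 3 was its lowest wild type library, so leaving it out had to enlarge the fall and is no added support. In that fit Cald1 was at −0.56 and passed (adjusted p = 0.0432, edgeR). With the replicate number as a block it was at −0.18 and did not pass (adjusted p = 0.714, edgeR). Without wild type replicates 1 and 3 it did not pass either (adjusted p = 0.0852, edgeR).

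Of 40 genes of contraction signalling, 25 fell, 5 rose and 10 did not pass, against the same background, with a median log2 fold change of −0.72. Jph2, which couples calcium channels to internal stores, Ppp1r12b, a myosin phosphatase subunit, Cacna2d1, a calcium channel subunit, and Abcc9, a potassium channel subunit, fell by 1.99, 1.64, 1.38 and 1.49 on the log2 scale. Bulk libraries do not assign these falls to smooth muscle, and all 20 skeletal muscle markers fell as well. Those that rose included Ano1, Arhgef1, Rock1 and Prkca, with log2 fold changes of 1.71, 0.49, 0.46 and 0.36. Mylk, the myosin light chain kinase, was named after its values were seen. It had 203.5, 164.9, 199.2 and 153.8 CPM in EoE33, against 518.6, 351.2, 147.9 and 689.0 CPM in wild type, the same library order as the members. Its log2 fold change was −1.24 (adjusted p = 0.0302, edgeR).

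Of 40 receptors for transmitters and mediators tested, 15 fell, 14 rose and 11 did not pass, shares near the 32.1% lower and 31.3% higher of all genes tested. Among those that fell was Ptger3, a receptor for prostaglandin E2, with a log2 fold change of −1.97. Those that rose included Il4ra, Il13ra1, Ptger4 and Ltb4r1, receptors for IL-4, IL-13, prostaglandin E2 and leukotriene B4, with log2 fold changes of 4.05, 1.41, 1.76 and 1.44. The remaining 10 were Tacr1, P2ry2, Htr2b, P2ry1, Hrh2, Bdkrb1, Ptger2, P2rx1, Hrh1 and Cysltr1, with log2 fold changes between 0.51 and 2.65. Many of these receptors are also made by epithelium and leukocytes, and bulk libraries do not assign them to smooth muscle. Chrm2, the most abundant muscarinic receptor of visceral smooth muscle, was named after its values were seen. It had 31.1, 25.5, 29.8 and 17.3 CPM in EoE33, against 68.3, 35.8, 9.65 and 78.5 CPM in wild type, and did not pass (log2 fold change −0.89, edgeR adjusted p = 0.204). Without wild type replicate 3, its lowest wild type library, its log2 fold change was −1.24 and it passed (adjusted p = 0.00973, edgeR). Leaving that library out had to enlarge the fall, so this is no added support. With the replicate number as a block Chrm2 was at −0.61 and did not pass (adjusted p = 0.484, edgeR).

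Of 31 transcription regulators and signals of the smooth muscle programme, 16 fell, Myocd among them, 5 rose and 10 did not pass, beside 32.1% lower and 31.3% higher of all genes, with a median log2 fold change of −0.42. Mef2c, Tead1 and Smad3, transcription factors with roles in muscle and in TGF-β signalling, fell by 1.498, 1.18 and 1.33 on the log2 scale. Jag1, Klf5, Tgfb1, Ybx1 and Mrtfa rose, with log2 fold changes of 0.59, 0.85, 1.14, 0.41 and 0.20.

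**Figure D4:**
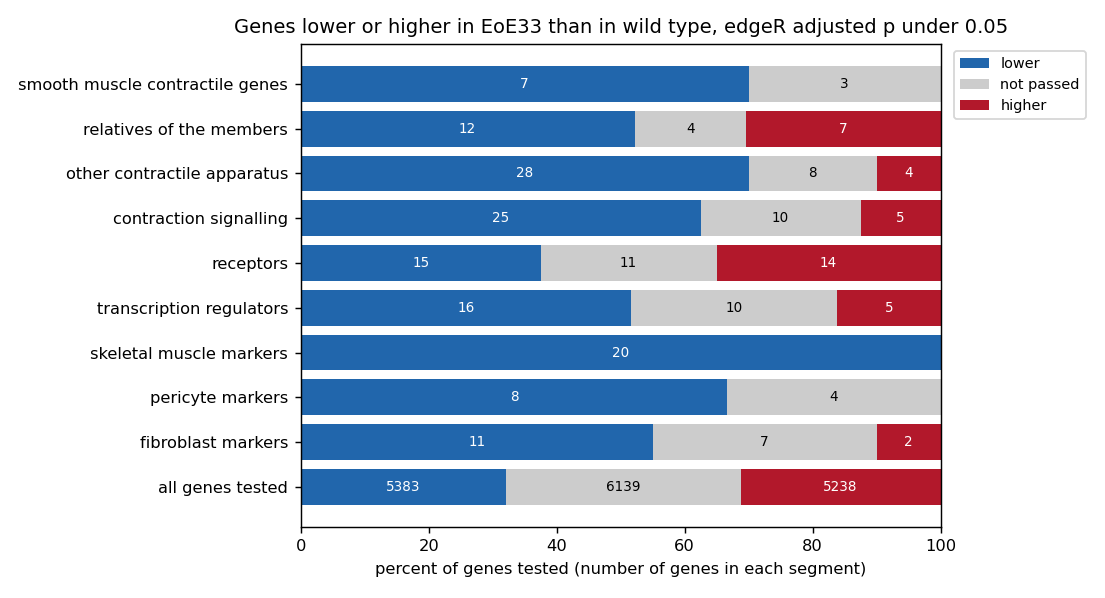
Share of tested genes that were lower, not passed or higher in EoE33 relative to wild type (edgeR adjusted p under 0.05), by gene list, with the number of genes in each segment. Of the 10 smooth muscle contractile genes 7 were lower and none higher, and of all genes tested 5383 were lower and 5238 higher.

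Marker lists of other cell types moved as well, and their part in the result was not tested. Their counts stand beside 32.1% of all genes tested lower and 31.3% higher. All 20 skeletal muscle markers fell, with a median log2 fold change of −1.996, and their summed level was 12060 to 15550 CPM in EoE33 and 45020 to 49180 CPM in wild type. Among them Ttn, Tnni2, Tnnt3 and Neb fell by 1.73, 2.01, 1.90 and 1.64 on the log2 scale. The skeletal muscle sum thus differed little between wild type libraries while the smooth muscle sum did. Of 12 pericyte markers 8 fell, and their sum was 489.8 to 590.8 CPM in EoE33 and 658.2 to 832.2 CPM in wild type. Abcc9, Cspg4, Rgs5 and Pdgfrb fell by 1.49, 1.86, 0.71 and 0.76. Of 20 fibroblast markers 11 fell and 2 rose, Tnc and Lox, and the sum was 4905 to 6591 CPM in EoE33 and 8288 to 10420 CPM in wild type. Of 13 endothelial markers 7 fell and 1, Vwf, rose, and the sum was 354.6 to 393.2 CPM in EoE33 and 369.2 to 504.3 CPM in wild type.

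The next lists are likewise read beside 32.1% lower and 31.3% higher of all genes tested. Of 16 tested enteric neuron and glia markers 11 fell and 1, Erbb3, rose. Nos1, the neuronal nitric oxide synthase, fell by 2.82 on the log2 scale. Bulk libraries do not assign this fall to neurons, and all 20 skeletal muscle markers fell as well. Of 8 markers of interstitial cells of Cajal, the pacemaker cells of the gut, 4 fell and 2, Etv1 and Ano1, rose. The defining receptor Kit, named after its values were seen, did not pass (log2 fold change 0.37). Bulk libraries do not assign Kit or Ano1 to these cells alone. The 10 squamous epithelium markers summed to 41080 to 59930 CPM in EoE33 and 52800 to 92510 CPM in wild type, with 6 higher and 3 lower.

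Several marker sums had the wild type order of the members, 4, 1, 2, 3. The pericyte sum was 819.6, 751.2, 658.2 and 832.2 CPM in wild type replicates 1 to 4. The sum for interstitial cells of Cajal was 234.9 to 311.1 CPM in EoE33, against 268.3, 256.5, 220.0 and 299.3 CPM in wild type replicates 1 to 4. By gene, that order was found in 7 of 12 pericyte, 7 of 13 endothelial, 7 of 20 fibroblast, 3 of 8 interstitial cell, 1 of 20 skeletal muscle and none of 16 enteric markers. The adipocyte sum was 590.4, 330.3, 201.3 and 435.5 CPM in EoE33 replicates 1 to 4, against 1926, 740.9, 362.7 and 1953 CPM in wild type replicates 1 to 4. Wild type replicates 4 and 1 were thus high and replicate 3 low in both the adipocyte and the smooth muscle genes, and 6 of 9 adipocyte markers had the wild type order 4, 1, 2, 3. Of the 9, 7 fell and 2 did not pass, beside 32.1% of all genes tested lower. The smallest p-values were those of Lep, Plin1, Cidec and Lipe. Liver markers were highest in wild type replicate 1, at 154.7 CPM for the 8 genes, against 5.48 to 12.9 CPM in the other wild type libraries and 0.761 to 4.06 CPM in EoE33. Few of the liver and airway markers had enough counts to be tested. Of these, 2 of 2 liver markers and 4 of 6 airway markers fell, beside the same 32.1%.

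**Figure D5:**
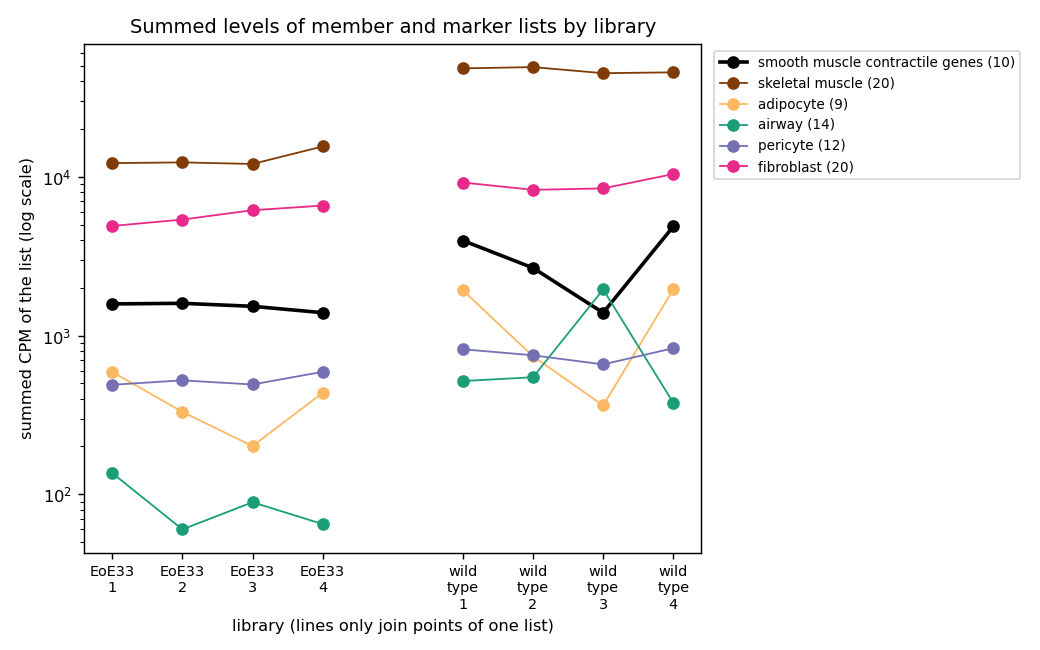
Summed CPM (log axis) of the smooth muscle contractile genes and of marker lists in each library, EoE33 replicates 1 to 4 and wild type replicates 1 to 4. Lines only join points of one list. In wild type the smooth muscle and adipocyte sums are high in replicates 1 and 4 and low in replicate 3, while the skeletal muscle sum stays between 45020 and 49180 CPM.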

How the data were processed

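RNA of whole esophagus from 8 mice was sequenced in paired-end mode (2 reads of 150 bases), per the labels' protocols. The authors deposited raw counts per Ensembl gene. The submitters' processing notes list Trimmomatic 0.36, STAR 2.5.2b, featureCounts, Subread 1.5.2 and GRCm38. No source used here gives the use of strand, the annotation release or the treatment of ambiguous reads. Columns were matched to mice by the spreadsheet letter in each sample's description, and all 8 were used. GENCODE M21 (GRCm38) gave symbols and exon lengths for 49056 identifiers and 259 did not match. No 2 libraries agreed within sampling noise.

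Genes passing edgeR's filterByExpr were scaled by TMM, and the quasi-likelihood test of edgeR 4.0.16 was run in R 4.3.3 with robust fitting and no covariate beside genotype, after a check on simulated counts. Standard errors were derived from the F statistic. For ratios and permutation tests 0.5 was added to CPM. Alternatives were other scalings, filters and thresholds, DESeq2 1.42.0, limma-voom 3.58.1, the replicate number as a block, and leaving out libraries.

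The members and lists were chosen with earlier results of these data known. The text names all members, the relatives in the ratios, for each list up to 4 genes of smallest p, genes that went against their list, and the 6 genes most like the members. The airway, liver and squamous epithelium lists are given by sums and counts only. For the fibroblast, endothelial and interstitial cell lists the rule was used only for genes that went against the list. Genes named outside this rule are said to be so. Of 311 list symbols, 310 were found. A gene that the rule would name is not reported here.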

Additional observations from a re-analysis of the deposited data

Results flagged for a closer look

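A library stood apart from the other 3 of its group, by Dixon's criterion for 4 values, in 5 of 78 sets of values, where chance flags about 1 in 20. The liver list was left out of this check. Its sum was 154.7 CPM in wild type replicate 1, against 5.48 to 12.9 CPM in the other wild type libraries. EoE33 replicate 4 had the lowest Myh11, at 402.0 CPM against 487.2 to 495.5 CPM in the other EoE33 libraries. The same library had the lowest Myl9 of its group, at 106.7 CPM, and the highest EoE33 log2 ratio of Myocd to Srf, at −5.09. Its skeletal muscle markers summed to 15550 CPM, the highest of the EoE33 group. In wild type replicate 3 the airway markers summed to 1952 CPM, against 377.2 to 546.4 CPM in the other wild type libraries. The low smooth muscle values of wild type replicate 3 were not far enough from the other wild type libraries to meet this criterion for any member.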

How the results depend on the processing

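All 10 members kept a negative log2 fold change in each of the 19 alternative fits or scalings run for them, so no direction turned. Of 190 such values, 161 stayed on the same side of the threshold, 22 no longer passed and 7 newly passed. Lmod1, Synpo2 and Myocd passed in all 19, and Tagln was lost in 11 and Myh11 in 8. Against 7 members lower with all libraries, 3 were lower with no low-count filter (16.6% of 31222 genes), 4 with the replicate block (30.5% of all genes lower) and 2 at an adjusted p under 0.01 (4137 of 16760 genes lower). Leaving out 1 library gave 5 to 10 members lower, 10 without wild type replicate 3, the lowest wild type library for every member. In these fits 4880 to 5333 of 17053 to 17128 genes were lower. Leaving out wild type replicates 1 and 3 gave 9, beside 4495 of 17354 genes lower. Where log2 fold changes had to reach 1 in size, 6 members were lower, and of all genes 2496 were lower and 2057 higher, against 5383 and 5238. DESeq2 called 8 members lower, beside 24.7% of its 22637 genes, and limma-voom 6, beside 5409 of 16760. No member was called higher in any setting. Library size without the counts of Chil4 moved the median of all genes by 0.10 and Tagln then had an adjusted p of 0.0740. The count of ratios past the threshold was also 0 with 0 or 1 added to CPM, which the design nearly fixes. Without wild type replicate 3 the difference in the log2 ratio of Myh11 to Myh10 was −0.05, against 0.38 with all libraries. Libraries with the same replicate number did not deviate together, with correlations of 0.127, −0.179, 0.026 and −0.148, so the numbers were not taken as pairs. Depth limits Myocd most, at 138 and 340 counts in EoE33 and wild type. The cause of these changes was not tested.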
